A study of Mus musculus with 23 samples.

Results

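Gene expression was compared between mouse CD4+ T cells that carried the surface protein CD25 and those that did not, among cells without surface CD49f. CD25, coded by Il2ra, is the alpha subunit of the receptor for interleukin-2, and CD49f is the integrin alpha 6 chain, coded by Itga6. The 12 arrays were chosen by their titles, 5 from CD25+CD49f- and 7 from CD25-CD49f- sorts, of 23 arrays in all. The other 11 arrays were of CD49f+ cells, 4 CD25+ and 7 CD25-. Their levels are described below in the array checks and where the CD25 difference is set against the same difference in those cells. All 23 arrays were fitted together, so the CD49f+ arrays also shaped every standard error and p-value of the main comparison. They entered the choice of probe set for each gene as well.

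Each array measured biotin-labelled RNA made from total RNA of 1 sample on an oligonucleotide array, and each array's label names a biological replicate. The labels describe the samples as T cells of female mice and name no strain, age, tissue or treatment, and the sort gates are given only as the presence or absence of the 2 surface proteins. All differences below are CD25+CD49f- minus CD25-CD49f- on the log2 scale with the standard error of the fit, so that a difference of 1 is a 2-fold change of the signal, and a gene is called at a limma adjusted p (Benjamini-Hochberg) under 0.05 over the 18194 genes measured. What separates the replicates (mice, pools or days) is not named, so a p-value is read against the spread of these samples alone. Precision is set by how many arrays there are; the standard error of a difference had a median of 0.108.

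CD25 joins the beta and common gamma chains to form the high-affinity receptor for interleukin-2, which signals through STAT5. Regulatory T cells (Treg cells), defined by the transcription factor Foxp3, carry CD25 at rest and restrain other T cells, whereas conventional CD4+ T cells carry it mainly after activation. A gate on CD25 therefore holds mostly Treg cells in a resting mouse, but activated conventional cells fall into it as well.

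Xist, the transcript of the inactive X chromosome, and the Y-linked Eif2s3y and Kdm5d did not match a single sex. Among CD25-CD49f- arrays 4 showed Xist and 3 showed Y-linked transcripts, and among CD25+CD49f- arrays 2 showed Xist, 2 showed Y-linked transcripts and 1 (replicate 5) showed both. This array also had the largest difference between the 3' and 5' Actb control probe sets (4.83, against 1.26 to 2.70 on the other 11 arrays), a sign of shorter RNA. It and replicates 1 and 7 of CD25-CD49f- cells correlated least with the other arrays of their groups, at means of 0.983, 0.983 and 0.967, and together with replicate 1 of CD25-CD49f+ cells they are the 4 arrays that stood apart. An absent transcript, Xist on arrays with Y-linked transcripts alone, gave a signal of up to 6.50, so levels under this are taken as background and differences that start there as those of the signals alone. Other absent transcripts read lower: on arrays with Xist alone, Eif2s3y read 2.43 to 3.49 and Kdm5d 2.99 to 4.07. The limit of 6.50 also lies above the median signal of every array (5.18 to 5.34). A gene called at background or under the absent level below may therefore still be expressed. Foxp3 differed by 5.07 among arrays with Xist alone, by 5.04 among those with Y-linked transcripts alone, and by 5.11 without the arrays that stood apart.

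Of 18194 genes, 1699 were higher in CD25+CD49f- cells (9.34% of all) and 852 were lower (4.68%), 2551 in either direction (14.0%). The counts of list members below are to be read against these shares. The median difference over all genes was -0.01. By at least 1 on the log2 scale, 379 genes were higher (2.08%) and 147 lower (0.808%). By at least 3, 27 were higher and 3 lower, so the large differences were mostly increases. All 5 CD25+CD49f- arrays read above all 7 CD25-CD49f- arrays for 1033 genes (5.68%) and below them for 440 (2.42%). Of the 1699 genes called higher, 744 had a mean in CD25-CD49f- cells under the absent level, and of the 852 called lower, 311 had a mean under it in CD25+CD49f- cells.

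**Figure D1:**
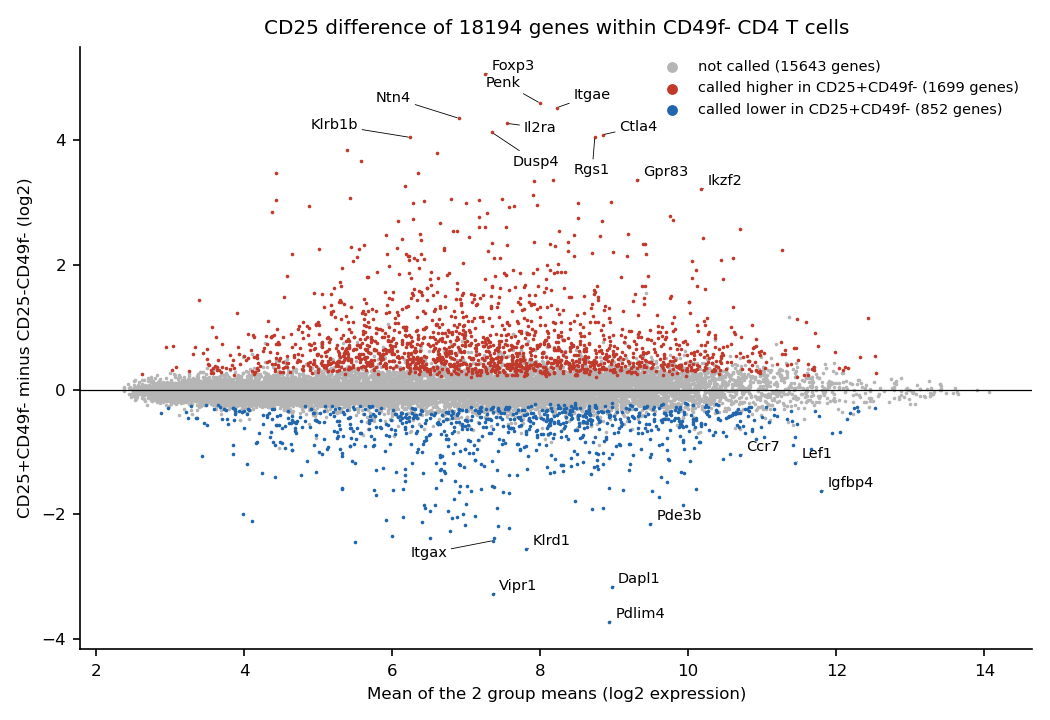
Each point is 1 of 18194 genes, with the mean of its 2 group means (log2 expression) on the horizontal axis and the CD25+CD49f- minus CD25-CD49f- difference (log2) on the vertical axis. Red points are the 1699 genes called higher, blue points the 852 called lower and grey points the rest, and the increases reach further from 0 (Foxp3, 5.05) than the decreases (Pdlim4, -3.72).

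The transcript of the sorted protein itself gave the first check of the gate. Il2ra read 9.79, 9.81, 9.59, 9.79 and 9.45 on CD25+CD49f- replicates 1 to 5, against a lowest, median and highest of 5.15, 5.47 and 5.62 on the CD25-CD49f- arrays. The groups stood far apart, with every CD25-CD49f- array at background, and the difference was 4.27 ± 0.12 (adjusted p = 2.65e-19). Both groups were sorted without CD49f, so the transcript of that protein cannot check its gate in this comparison. Itga6 read 9.55 to 9.98 in CD25-CD49f- and 9.28 to 9.84 in CD25+CD49f- cells, the groups overlapped, and the difference of -0.15 ± 0.09 was not called (adjusted p = 0.353). Itgb1, the beta chain that pairs with it, differed by -0.37 ± 0.25 (adjusted p = 0.427). Cd4 itself was called slightly lower (-0.28 ± 0.09, adjusted p = 0.0363), a call that was lost without the 4 arrays that stood apart (-0.17, adjusted p = 0.0597) and without any 1 of 7 of the 12 arrays (adjusted p up to 0.0753), and Cd3e was not called (-0.04 ± 0.10).

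The genes of Treg identity rose together. All 22 measured members of this list were called higher, with differences from 1.40 to 5.05 and a median of 2.87, against -0.01 over all genes. No member overlapped between the groups, and all 22 were called among the arrays with Xist alone and among those with Y-linked transcripts alone. The list was drawn up with earlier results of these data known, so its count describes these cells and is no independent test. Foxp3 had the largest difference of all named genes: it read 9.81, 9.79, 9.90, 9.67 and 9.77 on the CD25+CD49f- replicates and 4.21, 4.77 and 5.11 (lowest, median, highest) on the CD25-CD49f- arrays. CD25-CD49f- cells were at background, and the difference was 5.05 ± 0.13 (adjusted p = 1.26e-19). Its Ikaros family partners followed, Ikzf4 (Eos) by 3.35 ± 0.14 and Ikzf3 (Aiolos) by 1.42 ± 0.13. Ikzf2 (Helios), a marker of Treg cells made in the thymus, was well above background in both groups, at 12.07, 11.61, 11.76, 11.96 and 11.52 against 8.22, 8.59 and 8.85, a difference of 3.21 ± 0.11 with no overlap.

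Other members of the list ranged from secreted and surface proteins to proteins inside the cell. Penk, which codes the precursor of the enkephalin peptides, read 10.09, 10.27, 10.43, 10.41 and 10.28 against 5.14, 5.76 and 6.49, a difference of 4.59 ± 0.17 (adjusted p = 9.5e-17). Itgae (CD103), the integrin chain that binds E-cadherin on epithelium, read 10.36, 10.20, 10.58, 10.32 and 10.96 against 4.99, 5.92 and 6.44, a difference of 4.52 ± 0.18. In both, the lowest CD25+CD49f- array lay more than 3 above the highest CD25-CD49f- array. Gpr83, an orphan G protein-coupled receptor, rose by 3.35 ± 0.10, Nrp1, the neuropilin found on thymus-derived Treg cells, by 2.47 ± 0.24, and Izumo1r (folate receptor 4) by 1.83 ± 0.16. Capg, an actin capping protein, rose by 2.92 ± 0.14 and Socs2, a suppressor of cytokine signalling, by 2.99 ± 0.12. Plagl1, a zinc finger transcription factor, differed by 2.82 ± 0.13. The smallest differences of the list were those of Tnfrsf18 (GITR), which was already well expressed in CD25-CD49f- cells (9.12 to 9.47, against 10.15 to 10.96), and Ikzf3.

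**Figure D2:**
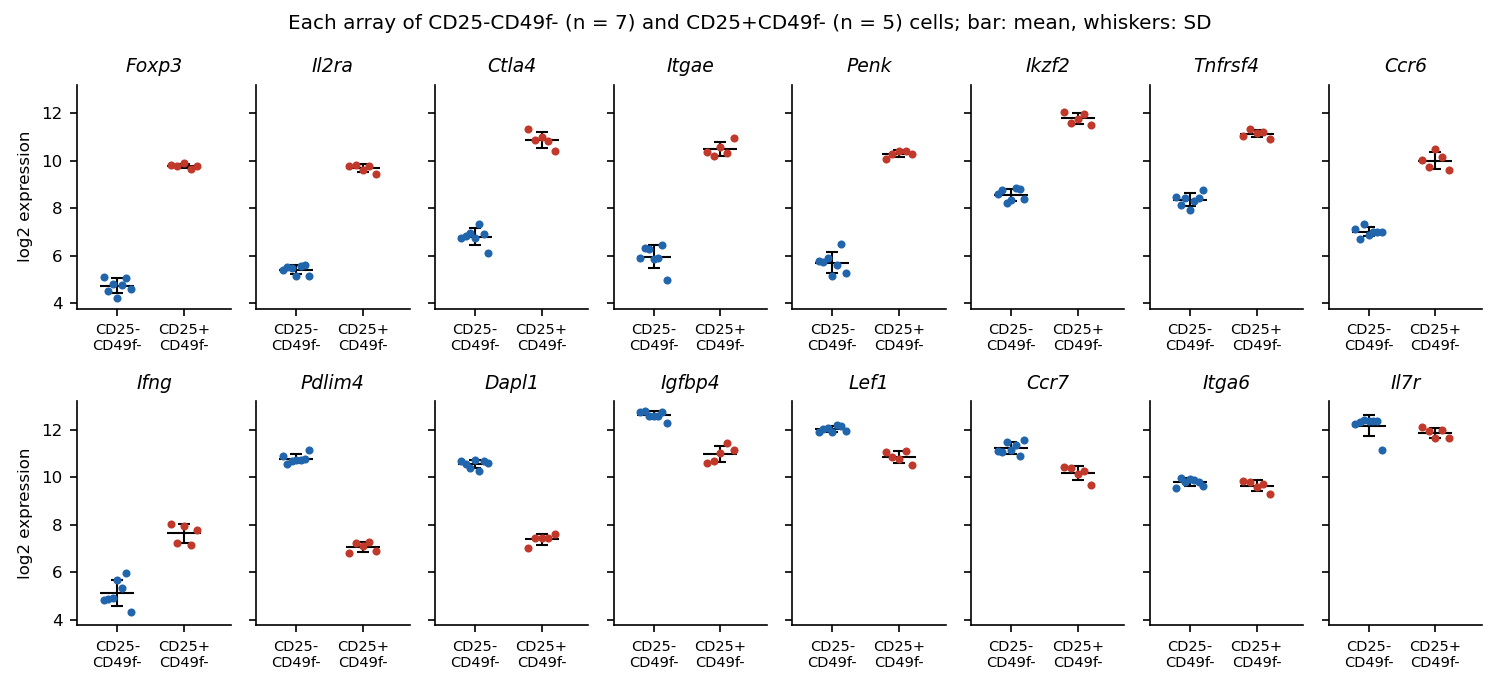
Each point is the log2 expression of a gene on 1 array, blue for the 7 CD25-CD49f- arrays and red for the 5 CD25+CD49f- arrays, with the mean as a bar and the SD as whiskers. Foxp3, Il2ra, Ctla4, Itgae and Penk lie about 4 to 5 apart, Pdlim4 and Dapl1 run the other way, and Itga6 and Il7r overlap.

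Promoters of 14 of the 22 genes were among the RefSeq sequences at hand (build GRCm38.p6). They were searched, from 250 bases upstream to the start, for TTCNNNGAA, the letters that STAT factors bind (the same on both strands), because interleukin-2 signals through STAT5. Foxp3, Tnfrsf9 and Tnfrsf18 held a match, 3 of 14 (21.4%), against 7.42% of the 14453 genes with a promoter, 7.63% of those called higher and 7.98% of those called lower. These 3 are shown, with the match in capitals, because they are the list's members that hold one. Among the targets of interleukin-2 and STAT5, 4 of 15 held a match (26.7%): Bcl6 and Lta, called higher, and Il7r and Socs3, not called. Foxp3 and Tnfrsf9 have several annotated starts, and the one with a match is shown (chrX:7580233-7580482, plus strand, and chr4:150927749-150927998, plus strand). Tnfrsf18 lies at chr4:156026072-156026321 on the plus strand.
Foxp3: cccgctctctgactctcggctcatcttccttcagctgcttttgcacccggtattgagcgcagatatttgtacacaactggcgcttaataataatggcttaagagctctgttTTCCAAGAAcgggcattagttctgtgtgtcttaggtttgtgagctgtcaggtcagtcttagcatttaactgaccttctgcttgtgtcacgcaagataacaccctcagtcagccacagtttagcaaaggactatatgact
Tnfrsf9: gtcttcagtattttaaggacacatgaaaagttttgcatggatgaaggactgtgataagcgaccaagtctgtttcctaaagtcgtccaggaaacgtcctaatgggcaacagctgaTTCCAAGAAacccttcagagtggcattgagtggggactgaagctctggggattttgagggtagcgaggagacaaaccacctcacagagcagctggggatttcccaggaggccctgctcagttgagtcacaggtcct
Tnfrsf18: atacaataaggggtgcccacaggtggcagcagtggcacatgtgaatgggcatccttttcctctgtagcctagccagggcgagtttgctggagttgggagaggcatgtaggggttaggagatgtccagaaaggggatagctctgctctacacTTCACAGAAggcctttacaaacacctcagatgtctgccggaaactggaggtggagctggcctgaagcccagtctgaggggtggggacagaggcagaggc
The matches begin 139 bases before the start in Foxp3, 136 in Tnfrsf9 and 99 in Tnfrsf18. TGTTTAC, the letters of forkhead factors such as Foxp3 (searched on both strands), was in 2.96% of the promoters of genes called higher, 2.07% of those called lower and 3.04% of all. TGANTCA, the letters of AP-1, was in 6.96%, 6.06% and 6.7%. Of the 14 Treg identity promoters, 1 held the forkhead letters (7.14%) and 2 those of AP-1 (14.3%), also above the shares of all. A higher share in this small list was thus not particular to the STAT letters. The STAT letters were in 9.27% of the promoters of genes higher by at least 1 and 11.7% of those lower by at least 1. A match is a description of the letters and not of binding.

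Genes of Treg suppression rose in most cases. Of 20 measured members 16 were higher, 2 lower and 2 not called, with a median of 1.50. Ctla4, the receptor that strips CD80 and CD86 from antigen-presenting cells, read 11.34, 10.86, 11.001, 10.82 and 10.40 on the CD25+CD49f- replicates against 6.13, 6.83 and 7.32 on the CD25-CD49f- arrays, a difference of 4.08 ± 0.15 with no overlap. Klrg1, an inhibitory lectin-like receptor of differentiated Treg cells, rose by 3.37 ± 0.10, and Itgb8, whose integrin releases active TGF-beta, by 3.06 ± 0.34. Gzmb, a granule protease, read 8.73, 8.70, 8.86, 9.20 and 8.71 against 5.90, 6.26 and 6.49, and rose by 2.61 ± 0.11. Ebi3, a subunit of interleukin-35 and interleukin-27, rose by 2.45 ± 0.14 and Il10 by 1.38 ± 0.14, but the Il10 means of both groups lay under the absent level. The 2 members called lower were Prf1, the pore-forming perforin (-1.54 ± 0.15), and Havcr2, the receptor TIM-3 (-1.14 ± 0.26, both means under the absent level). Lag3, a receptor for class II molecules, was higher by 1.15 ± 0.12, and Tgfb1 was not called (0.09 ± 0.15).

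The adenosine pathway was split. CD39 and CD73, coded by Entpd1 and Nt5e, turn extracellular ATP into adenosine. Nt5e rose by 1.77 ± 0.13 and Entpd1 by 0.82 ± 0.11, the latter under the absent level in both groups. Pde3b, a phosphodiesterase that breaks down cyclic AMP and that Foxp3 is known to repress, fell by 2.15 ± 0.29, from 8.88 to 11.29 in CD25-CD49f- cells to 7.75 to 8.80. Another phosphodiesterase gene, Pde4d (-0.78 ± 0.11), and the adenylate cyclase genes Adcy6 (-0.66 ± 0.10) and Adcy7 (-0.42 ± 0.08) were called lower as well. In all, 5 of 21 measured members were higher and 4 lower, with a median of 0.01, and the 5 became 2 without CD25+CD49f- replicate 2 and 3 without replicate 1 or 4.

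Inhibitory and costimulatory receptors changed in both directions. Of 29 measured, 11 were higher and 7 lower. Besides Ctla4, the increases included Cd200 (2.14 ± 0.15), Pdcd1 (PD-1, 1.65 ± 0.16), Pdcd1lg2 (1.63 ± 0.10), Icos (1.61 ± 0.14) and Cd160 (1.45 ± 0.10). Icos, a costimulator of effector Treg and follicular helper cells, read 10.995, 11.16, 10.92, 11.01 and 11.05 against 8.59, 9.54 and 9.80, with no overlap. Among the decreases were Lair1 (-1.62 ± 0.20), a collagen receptor, Slamf6 (-0.66 ± 0.15), Btla (-0.48 ± 0.08) and Cd28 (-0.37 ± 0.12), the costimulator that naive cells need. The Cd28 and Slamf6 differences were small beside those of Ctla4 and Icos, and the Cd28 call was lost without any 1 of 6 of the 12 arrays (adjusted p up to 0.129).

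The signalling chain of the interleukin-2 receptor was higher, and its targets were divided. Il2rb, the signalling chain shared with interleukin-15, read 10.35, 10.66, 10.55, 10.16 and 10.58 against 7.14, 7.48 and 7.81, a difference of 3.01 ± 0.11 (adjusted p = 6.9e-17). The feedback inhibitor Cish read 10.32, 10.36, 10.09, 10.15 and 10.06 against 8.28, 8.53 and 8.94, a difference of 1.66 ± 0.11. Neither gene overlapped between the groups. Of 20 measured targets of interleukin-2 and STAT5, 10 were higher and 4 lower (median 0.41). The largest increase was that of Il2ra itself (4.27), the gene of the gate, and the largest decrease that of Prf1 (-1.54). Lta, the cytokine lymphotoxin alpha, rose by 1.88 ± 0.11, the kinase gene Pim1 by 1.16 ± 0.14 and Bcl2l1, which codes the survival protein Bcl-xL, by 1.08 ± 0.10. The related kinase gene Pim2 was lower (-0.64 ± 0.15), as were the D cyclins Ccnd2 (-0.48 ± 0.10) and Ccnd3 (-0.60 ± 0.14). Il7r, the interleukin-7 receptor that Treg cells carry little of at the surface, was not called (-0.31 ± 0.17, adjusted p = 0.287) but was lower without CD25-CD49f- replicate 7 (-0.48, adjusted p = 0.00192) and by its other probe set (-0.78, adjusted p = 0.0359). Bcl2, its survival target, did not pass the test either (0.00 ± 0.12). Stat5a was higher (0.56 ± 0.14), whereas Stat5b was not called (0.09 ± 0.08).

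Other cytokine receptors were called higher more often than lower, 16 against 5 of 37 with Il2ra and Il2rb included, and the 5 became 8 without CD25+CD49f- replicate 4. Il1r1, the signalling receptor of interleukin-1, rose by 2.10 ± 0.14 and Il1r2, the decoy receptor, by 1.23 ± 0.11. Il17re (2.12 ± 0.10), Il12rb1 (1.78 ± 0.13) and Il18r1 (1.07 ± 0.10) rose too. The TGF-beta receptors diverged: Tgfbr1 rose by 0.93 ± 0.24, Tgfbr2 fell by 0.89 ± 0.13 and Tgfbr3 by 1.48 ± 0.17. Il1rl2, the receptor of interleukin-36, fell by 2.04 ± 0.12 and was among the 15 largest decreases. Il6ra (-0.89 ± 0.30) and Il6st (-0.56 ± 0.20), the chains of the interleukin-6 receptor, did not pass the test, although Il6ra did without any 1 of 5 arrays and Il6st without any 1 of 2 (lowest adjusted p 0.0234 and 0.0261).

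Of 37 measured TNF receptors and ligands 14 were higher, 4 lower and 19 not called, and their median of 0.07 lay near that of all genes. Tnfrsf4 (OX40) read 11.05, 11.34, 11.18, 11.23 and 10.92 against 7.94, 8.45 and 8.76, a difference of 2.78 ± 0.13. Tnfrsf9 (4-1BB) rose by 2.70 ± 0.16 and Tnfrsf1b, the TNF receptor 2 that supports Treg growth, by 1.66 ± 0.13. Tnfrsf1a, the death-domain receptor of the same ligand, was lower (-0.53 ± 0.12). Of the ligands, Tnfsf11 (RANKL) rose by 2.32 ± 0.33 and Tnf by 0.94 ± 0.12, and Fasl was lower (-0.78 ± 0.08). Cd27 (0.10 ± 0.13) and Cd40lg (-0.21 ± 0.12) were not called.

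Early genes that a T cell receptor signal induces were mostly higher in CD25+CD49f- cells. Of 25 measured, 19 were called higher and none lower, with a median of 1.26. Without CD25-CD49f- replicate 1, 1 member was called lower. Dusp4, a phosphatase of MAP kinases, had the largest difference: it read 9.63, 9.36, 9.37, 9.40 and 9.30 against 4.53, 5.40 and 5.65, a rise of 4.12 ± 0.16. The orphan receptors Nr4a1, Nr4a2 and Nr4a3, reporters of receptor signal strength, rose by 1.66 ± 0.15, 1.41 ± 0.20 and 1.38 ± 0.11, Egr2 by 1.26 ± 0.23 and Irf4 by 1.34 ± 0.24. Egr3 (0.49 ± 0.25) and Myc (0.11 ± 0.17) were not called. Fos, Fosb and Jun, subunits of AP-1 that also respond to tissue handling, rose by 2.24 ± 0.36, 2.54 ± 0.29 and 2.12 ± 0.36. Fos read 12.56, 12.26, 12.28, 12.51 and 12.31 against 8.47, 9.88 and 11.55, which leaves a narrow gap between the groups compared with that of Dusp4. Of 16 heat shock and dissociation genes 6 were called higher and none lower. Their mean level was 9.01 to 10.02 in CD25-CD49f- and 9.92 to 10.26 in CD25+CD49f- cells. The 6 became 4 to 9 on leaving out 1 of the 12 arrays. Among arrays with Xist alone 2 were called higher, and among those with Y-linked transcripts alone 1. The largest difference of this list, 2.24, equals that of Fos, so it may share genes with those just named. Hspa1a (1.56 ± 0.53) and Hspa1b (1.16 ± 0.41), the inducible chaperones, were not called with all arrays but were without CD25-CD49f- replicate 4 or 6 or CD25+CD49f- replicate 2 (lowest adjusted p 0.01 and 0.0118), and the part of handling in the early genes was not tested.

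Among feedback regulators of these signals, some were higher and fewer lower. Tnfaip3 (A20), which ends NF-kB signalling, read 12.02, 10.83, 11.52, 11.15 and 11.55 against 8.39, 8.83 and 9.73, a difference of 2.44 ± 0.24. Nfkbia rose by 1.14 ± 0.15, Nfkbiz by 1.66 ± 0.27 and Rel, the NF-kB subunit that Treg cells need to develop, by 1.52 ± 0.19. In the NF-kB list 11 of 20 were higher and 3 lower, Ikbkb (-0.41 ± 0.12), Ikbke (-0.48 ± 0.16) and Map3k14 (-0.54 ± 0.17). None of the 3 decreases was called without CD25+CD49f- replicate 5 (adjusted p 0.0617 to 0.133), and 1 was called without CD25-CD49f- replicate 5 or CD25+CD49f- replicate 3. Rgs1, a brake on chemokine receptor signals, rose by 4.05 ± 0.23, Dusp1 by 2.58 ± 0.30, Spry1 by 1.86 ± 0.10 and Rgs16 by 1.80 ± 0.18. Of the 29 feedback genes 12 were higher and 5 lower, and leaving out any of 5 arrays left 3 of the 5 decreases.

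In the receptor and its proximal signalling chain most genes were not called, and those called were mostly lower. Of 29 measured genes 10 were lower and 1 higher, against 4.68% and 9.34% of all genes, with a median of -0.15. Themis, which sets receptor thresholds in the thymus, had the largest decrease (-1.17 ± 0.09), followed by Dgka (-0.70 ± 0.15), a kinase that consumes diacylglycerol, and Pag1 (-0.68 ± 0.14). The decreases of Cd247 (-0.46 ± 0.15), which codes the zeta chain, and Lat (-0.34 ± 0.10), the adaptor, were smaller than 0.5, and their calls were lost without any 1 of 7 and any 1 of 4 arrays (adjusted p up to 0.123 and 0.0651). The increase, Sh2d2a (0.29 ± 0.10), was lost without any 1 of 10 of the 12 arrays. Only 1 decrease was called among the arrays with Xist alone and 2 among those with Y-linked transcripts alone, where fewer arrays enter. Zap70 (-0.06 ± 0.15), Cd3d (-0.17 ± 0.07) and Ptprc (-0.01 ± 0.09) were not called.

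Genes of naive and resting T cells were lower more often than higher. Of 20 measured members 11 were lower, 2 higher and 7 not called, with a median of -0.42. Pdlim4, a PDZ and LIM domain protein, had the largest decrease of all named genes: it read 6.80, 7.24, 7.10, 7.29 and 6.90 on the CD25+CD49f- replicates against 10.58, 10.73 and 11.16 on the CD25-CD49f- arrays, a difference of -3.72 ± 0.15 (adjusted p = 8.4e-16). Dapl1, a transcript of naive cells, read 7.01, 7.43, 7.46, 7.43 and 7.60 against 10.25, 10.58 and 10.72, a difference of -3.17 ± 0.15. Both stood clear of the other group. Igfbp4, a binding protein of insulin-like growth factors, fell by 1.63 ± 0.13, Lef1, a partner of beta-catenin that keeps T cells naive, by 1.17 ± 0.09, and Ccr7, the receptor that leads cells into lymph nodes, by 1.05 ± 0.14. Ccr7 read 10.41, 10.38, 10.13, 10.28 and 9.69 against 10.89, 11.15 and 11.55, so that the fall left a level far above background. Klf2, which drives Ccr7 and S1pr1, differed less (-0.55 ± 0.10), as did S1pr1 (-0.55 ± 0.15) and Bach2 (-0.36 ± 0.11), whose call was lost without CD25+CD49f- replicate 3 or 5 (adjusted p up to 0.0851). The members called higher were Id3 (1.12 ± 0.13) and Ccr9 (0.84 ± 0.20). None of the other probe sets of Ccr9 was called (-0.04 to 0.34, lowest adjusted p 0.532). Its call was lost with the mean of its probe sets, and among arrays with Xist alone or with Y-linked transcripts alone. Foxo1 (0.02 ± 0.07), Btg1 (0.00 ± 0.08) and Foxp1 (-0.20 ± 0.12) were not called.

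Satb1, a chromatin organiser that Foxp3 represses, fell by 0.95 ± 0.11, from 11.94 to 12.56 in CD25-CD49f- cells to 10.83 to 11.43. It belongs to a list of genes that Treg cells express less than conventional CD4+ T cells, of which 5 of 12 were lower, 2 higher (Tnfsf11 and Id3) and 5 not called. Il2, the cytokine that Foxp3 silences, was at background in both groups (4.36 to 5.50 and 5.27 to 5.67).

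**Figure D3:**
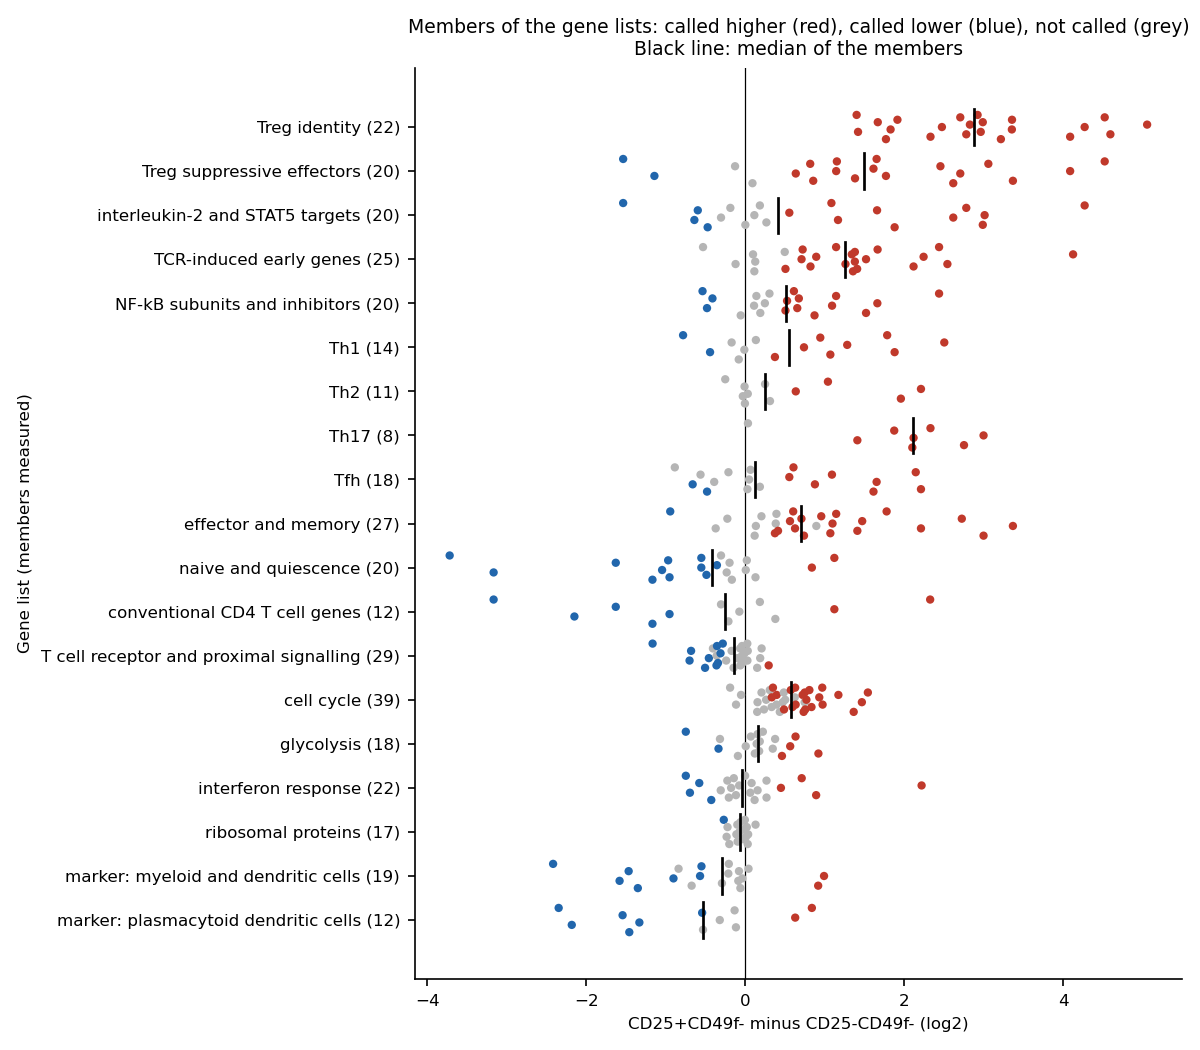
Each point is 1 measured member of a gene list, placed by its CD25+CD49f- minus CD25-CD49f- difference (log2), red if called higher, blue if called lower and grey if not called, and the black line is the median of the members. The Treg identity and Th17 lists lie furthest to the right, the naive and plasmacytoid dendritic lists lean left, and ribosomal protein genes stay near 0.

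Effector and memory genes were mostly higher. Of 27 measured 18 were higher and 1 lower, with a median of 0.70. Lgals3, which codes galectin-3, read 11.10, 11.18, 11.22, 11.36 and 10.90 against 7.93, 8.60 and 8.70, a difference of 2.72 ± 0.13. Cd44, the hyaluronan receptor that marks antigen-experienced cells, rose by 1.10 ± 0.16, S100a4 by 1.78 ± 0.16 and S100a6 by 1.47 ± 0.12. The member called lower was Ccl5, a chemokine of effector cells (-0.95 ± 0.15). Id2 (0.39 ± 0.22), Vim (0.20 ± 0.10) and Itga4 (-0.23 ± 0.13) were not called, and the most variable probe set of Itga4 gave the other direction (0.73, adjusted p = 0.0152).

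Among homing genes, the differences were concentrated in a few members. Ccr6, which guides cells to CCL20 at mucosal surfaces, read 10.03, 9.75, 10.50, 10.15 and 9.59 against 6.72, 6.995 and 7.33, a difference of 2.996 ± 0.14. Ccr9, Cxcr5 (0.60 ± 0.19), Ccr8 (0.63 ± 0.10) and Cxcr3 (0.37 ± 0.11) were higher by less than 1, and the calls of Cxcr5 and Cxcr3 were lost without any 1 of 6 and any 1 of 2 arrays (adjusted p up to 0.133 and 0.0893). Ccr9 was not called by its other probe sets. In all 5 of 18 chemokine receptors were higher and 1, Ccr7, lower, and the 5 became 3 without CD25+CD49f- replicate 1 or 2. Without CD25-CD49f- replicate 7 2 chemokine receptor genes were lower. Cxcr6, a receptor of effector cells in tissues, read 8.93, 9.07, 8.01, 9.28 and 5.08 against 6.07, 7.40 and 7.997. CD25+CD49f- replicate 5 lay below every other array, and the difference was not called with it (0.89 ± 0.48, adjusted p = 0.289) but was without it (1.64, adjusted p = 0.000266) and by its other probe set with all arrays (1.62, adjusted p = 0.000191). Ccr4 (-0.01 ± 0.11) and Cxcr4 (-0.33 ± 0.28) were not called, although Cxcr4 was lower without CD25-CD49f- replicate 7 (-0.59, adjusted p = 0.0432). Of 24 integrin chains 18 were not called, where 14.0% of all genes were called in either direction. The increases were Itgae, Itgb8 and Itgav (0.82 ± 0.20), the last the alpha chain that pairs with Itgb8, and the decreases Itgax (-2.42 ± 0.28), Itgb3 (-1.14 ± 0.13) and Itga7 (-0.88 ± 0.22).

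Genes of the T helper lineages were counted factor by factor and list by list. Of 41 lineage transcription factors 23 were higher and 5 lower, with a median of 0.55. Maf, which drives interleukin-10 and interleukin-21, read 10.41, 9.64, 10.30, 10.72 and 9.34 against 6.11, 8.25 and 8.57, a difference of 2.21 ± 0.36. Gata3, the factor of Th2 cells, rose by 1.04 ± 0.10, Rora, a factor of Th17 cells, by 1.41 ± 0.11, Ahr, the aryl hydrocarbon receptor, by 1.87 ± 0.21, and Eomes, of Th1 and cytotoxic cells, by 1.28 ± 0.16. Nfil3 (1.96 ± 0.14), Bhlhe40 (1.89 ± 0.15), Gfi1 (1.68 ± 0.12) and Prdm1 (Blimp-1, 1.14 ± 0.15) rose as well. Tbx21, the defining factor of Th1 cells, was not called (0.13 ± 0.11), nor were Stat3 (0.03 ± 0.09), Stat4 (-0.01 ± 0.12) and Runx3 (-0.08 ± 0.15). The decreases besides Lef1, Satb1, Klf2 and Bach2 were those of Ikzf1 (Ikaros, -0.76 ± 0.11).

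The Th17 list was high almost throughout, with 7 of 8 measured members higher and a median of 2.11. Tmem176a (2.75 ± 0.09) and Tmem176b (2.33 ± 0.11), neighbouring genes of membrane proteins found in Th17 cells, had the largest differences after Ccr6. Il17a, the cytokine itself, was at background in both groups and not called (0.03 ± 0.08). The Th1 list held 8 increases and 2 decreases of 14. Ifng read 8.04, 7.25, 7.94, 7.15 and 7.79 against 4.34, 4.93 and 5.95, a difference of 2.50 ± 0.24, with the CD25-CD49f- arrays all under the absent level. The 2 decreases, Fasl and Hlx (-0.44 ± 0.14), became 1 without any 1 of 5 arrays (Hlx, adjusted p up to 0.0808). The Th2 list held 4 increases of 11, with Il4 (0.03 ± 0.10), Il5 (-0.01 ± 0.10) and Il13 (-0.03 ± 0.09) at background, and the Tfh list 8 increases and 2 decreases of 18, with Cd200, Icos and Maf foremost, and 4 decreases without CD25-CD49f- replicate 6 or CD25+CD49f- replicate 4. Bcl6, the defining factor of that lineage, was called higher (0.55 ± 0.19), but not without any 1 of 8 of the 12 arrays (adjusted p up to 0.12), and Il21 was not called (0.18 ± 0.15). Of 24 cytokine genes 15 were not called, and 14 had means under the absent level in both groups.

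Cell cycle genes were either higher or not called. Of 39 measured 22 were higher, none lower and 17 not called, with a median of 0.57. The largest differences were those of DNA replication: Rrm2, a ribonucleotide reductase subunit (1.54 ± 0.21), Uhrf1, which maintains DNA methylation (1.47 ± 0.13), Cdc6, which loads the replicative helicase (1.36 ± 0.20), and the helicase subunit Mcm5 (0.97 ± 0.13). Mki67, which marks cycling cells, read 8.66, 8.81, 8.90, 7.95 and 8.78 against 7.18, 7.80 and 8.21, a rise of 0.77 ± 0.16 with overlap between the groups. Plk1 (0.20 ± 0.13), Aurka (0.26 ± 0.14) and Pcna (0.43 ± 0.18) were not called, although Pcna was without CD25+CD49f- replicate 5 (0.58, adjusted p = 0.0221). Cdk1, the kinase that starts mitosis, was higher by 0.83 ± 0.13. In bulk samples, a larger share of cycling cells and more RNA per cell cannot be told apart, and the same holds for every other gene here.

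In several further lists most members were not called, which holds for all genes too (14.0% called in either direction). The glycolysis, interferon response and Bcl2 family lists held larger shares of called members than that. Among 17 ribosomal protein genes 1, Rpl8, was lower (-0.27 ± 0.07; 2 were without any 1 of 3 arrays) and none higher, and their median was -0.06. Of 18 glycolysis genes 4 were higher, led by Slc2a3, the glucose transporter GLUT3 (0.92 ± 0.11), and 2 lower, Pdk1 (-0.75 ± 0.15) and Pfkp (-0.34 ± 0.11), the latter not without any 1 of 6 arrays (adjusted p up to 0.129). Without the arrays that stood apart 8 were higher and 1 lower. Of 18 cholesterol genes 1 was higher and 1 lower, which became 3 higher without CD25-CD49f- replicate 7, 2 higher without CD25+CD49f- replicate 5, 2 lower without CD25-CD49f- replicate 3 or CD25+CD49f- replicate 2, and 4 and 2 without the arrays that stood apart. Of 22 interferon response genes 4 were higher, with the GTPase gene Gbp3 far ahead (2.22 ± 0.20), and 4 lower, with Irf7 at -0.58 ± 0.16, a call that was lost without CD25+CD49f- replicate 5 (adjusted p = 0.053). In the Bcl2 family 6 of 19 were higher, Pmaip1 (Noxa, 1.32 ± 0.20) and Bcl2l1 foremost, and Mcl1 (0.07 ± 0.07) was not called.

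Among the largest increases that belonged to no list were Ntn4, a netrin (4.35 ± 0.13), Fam184b (3.84 ± 0.14), Arnt2, a partner of bHLH-PAS factors (3.79 ± 0.07), and Kcnk1, a potassium channel (3.48 ± 0.09). Ntn4 read 9.25, 9.05, 8.999, 9.10 and 9.002 on the CD25+CD49f- replicates against 4.23, 4.84 and 5.01. Klrb1b, an inhibitory receptor of the NK gene complex, read 8.26, 8.20, 8.34, 8.27 and 8.27 against 3.99, 4.25 and 4.37, a difference of 4.04 ± 0.08. Its relatives are alike in sequence, so that a probe set may report more than 1 of them. All of these were at background in CD25-CD49f- cells. Of 16 killer lectin-like receptors 3 were higher (Klrb1b, Klrg1 and Klrb1f) and 2 lower, Klrd1 (CD94, -2.56 ± 0.19) and Klra17 (-2.18 ± 0.34).

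Of the 15 largest decreases, several are genes of dendritic cells. Itgax (CD11c) read 5.70, 6.24, 6.30, 6.53 and 6.03 against 7.39, 8.73 and 9.68. Dnase1l3, a secreted nuclease of dendritic cells and macrophages, fell by 2.35 ± 0.21, and Klra17, a receptor of plasmacytoid cells, read 5.39, 6.67, 6.35, 6.81 and 6.49 against 7.21, 8.66 and 9.61. The CD25-CD49f- arrays were thus both higher and more spread. Of 12 measured markers of plasmacytoid dendritic cells 6 were lower, Siglech (-1.33 ± 0.19) and Spib (-1.54 ± 0.27) among them, and 2 higher (Tlr7 and Ccr9, the latter not by its other probe sets). Their mean level was 6.67 to 7.90 in CD25-CD49f- and 6.28 to 6.77 in CD25+CD49f- cells. Of 19 markers of myeloid and dendritic cells 7 were lower, with Mpeg1 (-1.58 ± 0.22), Cd68 (-1.47 ± 0.32) and Tyrobp (-1.35 ± 0.24) falling most after Itgax, and 2 higher (Batf3 and Fcer1g, the latter not without CD25+CD49f- replicate 4, adjusted p = 0.0562), at mean levels of 6.60 to 7.73 and 6.48 to 6.85. The class II genes H2-Aa (-0.27 ± 0.23) and Cd74 (-0.63 ± 0.26) were not called, though Cd74 was without CD25-CD49f- replicate 1 (-0.81, adjusted p = 0.0226), and 3 of 11 of that pathway were lower, a count that became 6 without CD25-CD49f- replicate 1, and 1 without its replicate 2 or without CD25+CD49f- replicate 4. The part of such cells in the decreases was not tested.

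Others of the 15 largest decreases were on no list. Vipr1, the receptor of vasoactive intestinal peptide that resting T cells carry, read 5.71, 5.93, 5.34, 5.64 and 5.99 against 8.80, 8.86 and 9.63, a difference of -3.28 ± 0.18 (adjusted p = 5.63e-13). Sash1, an adaptor protein, differed by -2.38 ± 0.28, Cnga1, a cyclic nucleotide-gated channel subunit, by -2.38 ± 0.15, Ccnd1, cyclin D1, by -2.27 ± 0.25, Tdrp by -2.22 ± 0.12, Lypd6b by -2.17 ± 0.14 and Tbc1d8 by -2.13 ± 0.28. All 7 of these had a mean in CD25+CD49f- cells under the absent level.

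The lists of markers of other cells were short, and in most of them the share called lower was above the 4.68% of all genes. The shares called higher are to be read against 9.34%. Of 15 B cell markers 3 were lower (1 without CD25+CD49f- replicate 1) and 2 higher. Only 7 of the 15 were under the absent level in both groups, among them Cd79a, Pax5 and Ebf1, which define B cells. The mean level of the list was 6.23 to 7.25 in CD25-CD49f- and 6.16 to 6.91 in CD25+CD49f- cells. Neutrophil markers fell in 2 of 9 members, Mpo (-1.76 ± 0.23) and Elane (-0.64 ± 0.14), and in 7 of 9 without the arrays that stood apart. Of 11 NK cell markers 3 were higher and 4 lower, of 7 CD8 T cell markers 2 and 2 with Cd8a not called (-0.25 ± 0.15), and of 8 pan-T cell markers 4 were lower and none higher. The 4 became 1 to 3 without any 1 array, fewest without CD25+CD49f- replicate 5, when 1 was higher, and without the arrays that stood apart 2 were lower and 1 higher. Of 7 platelet markers 2 were lower, of 7 erythroid markers 1 (2 without CD25-CD49f- replicate 7 or CD25+CD49f- replicate 5), of 11 stromal markers 2, of 9 thymocyte markers 2, of 7 plasma cell markers 1 (3 if CD25-CD49f- replicate 1 was left out, 2 if CD25+CD49f- replicate 2 was) with 2 higher, and of 4 markers of gamma delta and NKT cells 2 were higher.

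The same CD25 difference was measured in CD49f+ cells, on other arrays. There 511 genes were higher (2.81%) and 529 lower (2.91%). Of the genes called higher in CD49f- cells, 374 were also called higher in CD49f+ cells, which is 22.0% of 1699 and 73.2% of 511, and 205 were lower in both, 24.1% of 852 and 38.8% of 529. Another 83 genes were higher in CD49f- and lower in CD49f+ cells, and 2 the reverse. The median difference of the 1699 genes was 0.59 in CD49f- and 0.14 in CD49f+ cells, and that of the 852 was -0.53 and -0.21.

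The difference between the 2 differences was called for 966 genes (5.31%), 787 of them above 0 and 179 below. Foxp3 itself was among the 12 genes with the smallest p: its CD25 difference was 5.05 in CD49f- and 1.60 in CD49f+ cells, 3.46 apart (limma adjusted p = 2.83e-12). The 2 CD25+ groups were alike, at means of 9.79 and 9.85, and CD25-CD49f+ cells were at 8.25, far above the 4.74 of CD25-CD49f- cells. Osbpl3, an oxysterol-binding protein, had the same form, with means of 8.43, 8.46, 8.39 and 6.32. The other 10 genes did not follow it. Klrb1b differed by 4.04 in CD49f- and 0.07 in CD49f+ cells, Arnt2 by 3.79 and -0.05, Kcnk1 by 3.48 and 0.06, and Fam184b by 3.84 and 0.02. In these 4 the CD25+CD49f- group stood alone, with the other 3 groups under the absent level. Pxdc1 (3.18 apart), Upp1, which codes uridine phosphorylase (2.59), Tmem176a (2.89), Tmem176b (2.85) and Klrg1 (3.11) were likewise higher in CD25+ than CD25- cells among CD49f- cells, with CD49f+ differences of -0.13, 0.14, -0.14, -0.52 and 0.25. Lgals3 changed sign, with 2.72 against -1.02, 3.74 apart (adjusted p = 4.81e-13).

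**Figure D4:**
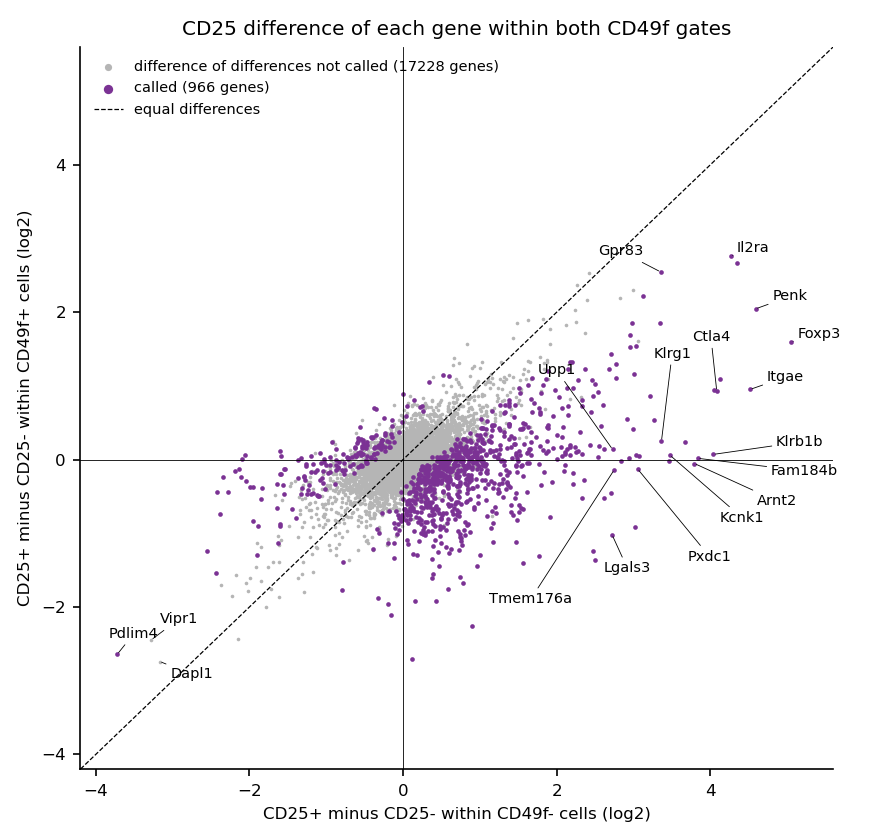
Each point is 1 gene, with its CD25+ minus CD25- difference (log2) within CD49f- cells on the horizontal and within CD49f+ cells on the vertical axis. Purple points are the 966 genes whose 2 differences differ, and the dashed line marks equal differences. Klrb1b, Arnt2, Kcnk1 and Fam184b lie near 0 on the vertical axis and near 4 on the horizontal, and Il2ra and Gpr83 lie closest to the dashed line among the labelled increases.

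Lists were compared in the same way. Cell cycle genes, 22 of 39 higher in CD49f- cells, were lower in 21 of 39 and higher in none in CD49f+ cells, with medians of 0.57 and -0.87, and 31 of the 39 had differences that differed. Effector and memory genes were higher in 18 and lower in 1 of 27 in CD49f- cells, against none and 16 in CD49f+ cells, with 23 that differed. The mean level of the cell cycle list was 6.69 to 7.13 in CD25-CD49f-, 7.24 to 7.65 in CD25+CD49f-, 8.33 to 8.86 in CD25-CD49f+ and 7.79 to 8.20 in CD25+CD49f+ cells. The 4 groups did not overlap, and both CD49f- groups lay below both CD49f+ groups. Treg identity genes were higher in CD49f+ cells too, in 21 of 22, by a median of 1.20 in place of 2.87, and 18 of them differed. Naive genes were lower in 11 and 8 of 20, with medians of -0.42 and -0.39, and 6 of the 20 had differences that differed.

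**Figure D5:**
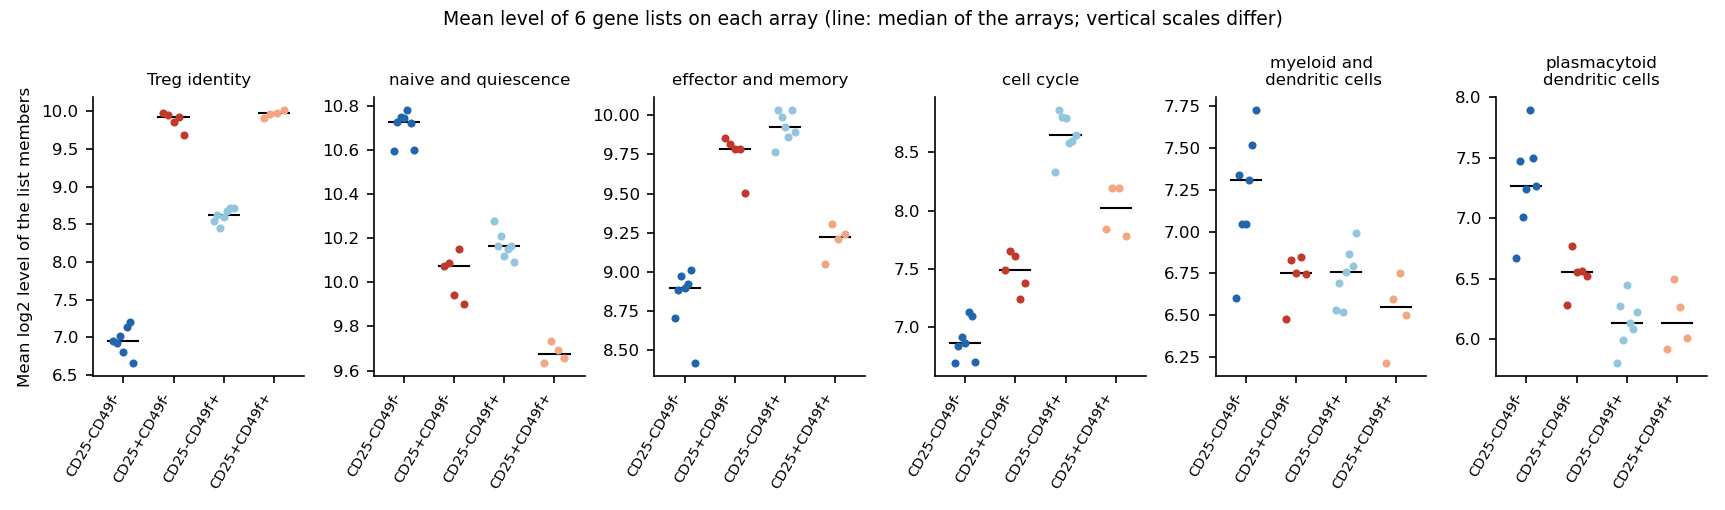
Each point is the mean log2 level of the measured members of a list on 1 array, by group, with the median of the group's arrays as a line and a separate vertical scale for each list. Treg identity is high in both CD25+ groups, the cell cycle list is lowest in CD25-CD49f- cells, and the dendritic lists are highest and most spread there.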

How the data were processed

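The authors deposited log2 values for 45101 probe sets on each of 23 arrays, computed with RMA per the submitters' processing notes, which give no version. RMA joins the probes of a probe set on the log2 scale after quantile scaling, which holds the overall distribution of the arrays alike. No further scaling was applied here.

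Of the probe sets, 34958 named 1 gene, 932 several and 9211 none in the array annotation. By Entrez identifier 34754 matched the table of RefSeq mouse genes (GRCm38.p6) and 204 did not. Where a gene had several probe sets (9012 genes), that of highest mean on all arrays was kept, which left 18194 genes. The 4 groups were fitted together by lmFit, contrasts.fit and eBayes of limma (3.58.1, under R 4.3.3) with 19 residual degrees of freedom, with Benjamini-Hochberg adjustment over all genes and calls at 0.05. The difference of the CD25 differences in CD49f- and CD49f+ cells was a contrast of the same fit. The fit was tested on simulated data. Plots were made with matplotlib 3.10.9 under Python 3.11.15.

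The members and the 44 gene lists were chosen with earlier results of these data known. Of 702 list genes, 627 were measured. Genes were named by rule: key genes of the biology, the called genes with the 15 largest differences in each direction and a brighter group mean of at least 7, up to 6 called members a direction of each list with uncalled members as values only, the 12 smallest p of the difference of differences, and the sex-linked transcripts. Where fewer are printed, those named were chosen from these with their values known, and some called genes near the threshold are named although the rule would pass them over. Some key genes were not analysed here. Promoters were matched by symbol, for 14453 of the 18194 genes.

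Alternatives were leaving out each of the 12 arrays, array weights, a block on replicate number (fixed or random), a robust eBayes with a trend, rescaling of the arrays by cyclic loess, median or quantiles, other probe set rules, every probe set, the brighter genes, the 2 groups alone, stricter thresholds, and arrays with Xist or with Y-linked transcripts only or as a covariate. Fits without the 4 arrays that stood apart and with each array's Actb difference (3' minus 5') as covariate were added after seeing the data.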

Additional observations from a re-analysis of the deposited data

Results flagged for a closer look

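Some values of the named genes lay far from the others of their group, farther than the critical value of a Dixon test allows. There were 51 such values in the 444 sets of 7 or 5 arrays that were examined, and chance gives about 1 in 20. Of these, 30 were on CD25-CD49f- replicate 7. The log2 values on that array were those of Bcl6 (6.49), Btg1 (12.10), Capg (5.16), Cd27 (10.58), Cd3e (12.22), Icos (8.59), Id2 (9.18), Ikbke (11.90), Ikzf3 (7.73), Il1rl2 (7.45), Il7r (11.16), Irf7 (8.71), Itgae (4.99), Itgav (7.79), Izumo1r (9.47) and Mcm5 (8.81). They further included Nfkbiz (7.98), Nrp1 (5.73), Pde3b (8.88), Pim2 (9.75), Ptprc (12.63), Rrm2 (6.76), Runx3 (7.71), Satb1 (12.56), Sh2d2a (8.87), Slamf6 (10.99), Tgfbr3 (9.46), Themis (8.82), Tnfrsf1a (9.39) and Vipr1 (9.63). On CD25+CD49f- replicate 5, the array that showed both Xist and Y-linked transcripts, they were Arnt2 (8.25), Cd247 (9.26), Dgka (10.71), Irf4 (7.23), Izumo1r (9.84), Map3k14 (6.0) and Tnfrsf18 (10.15). CD25+CD49f- replicate 1 gave Adcy7 (11.76), Bcl2l1 (8.99), Dapl1 (7.01) and Tyrobp (7.42). CD25-CD49f- replicate 1 gave Klrg1 (6.97), Myc (8.50) and S1pr1 (9.34). CD25-CD49f- replicate 5 gave Pxdc1 (5.74), Rpl8 (12.52) and Spib (8.91). CD25+CD49f- replicate 2 gave Adcy6 (7.60) and Cd79a (5.75). CD25+CD49f- replicate 4 gave Mki67 (7.95). CD25-CD49f- replicate 3 gave Spry1 (6.62).

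The CD25 difference of 12 genes differed most clearly between CD49f- and CD49f+ cells by the contrast of the limma fit, and all 12 were larger in CD49f- cells. The difference of the 2 differences was Arnt2 (3.85), Fam184b (3.82), Foxp3 (3.46), Kcnk1 (3.42), Klrb1b (3.97), Klrg1 (3.11), Lgals3 (3.74), Osbpl3 (2.04), Pxdc1 (3.18), Tmem176a (2.89), Tmem176b (2.85) and Upp1 (2.59) on the log2 scale.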

How the results depend on the processing

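The counts moved with the choice of arrays and thresholds more than their direction did. Among arrays with Xist alone 967 genes were higher and 317 lower, and among arrays with Y-linked transcripts alone 694 and 310, where fewer arrays enter. Of these calls, 1205 of 1284 and 967 of 1004 were shared with those of all arrays, each in the same direction. Both sets of arrays are part of the full set, so this sharing was largely built in and is no independent test. Without the 4 arrays that stood apart 2257 genes were higher and 1324 lower, in place of 1699 and 852. With array weights these counts were 2330 and 1329, and with only the 2 groups in the fit 1246 and 567. At an adjusted p under 0.01 they were 1220 and 564. A difference of at least 1 left 379 higher and 147 lower, and testing every probe set gave 2734 and 1750. The genes whose 2 CD25 differences differed, 966, became 2273 with array weights, 599 at an adjusted p under 0.01, 402 with a difference of at least 1, 370 and 242 among the Xist and the Y-linked arrays, and 1710 without the 4 arrays; the cause was not tested. Leaving out 1 array gave 1460 to 1801 higher, 737 to 967 lower and 851 to 1128 for the difference of differences, the largest numbers of higher and lower genes without CD25-CD49f- replicate 7. The replicate block gave 1586, 786 and 985. No pairing by replicate number was seen: with the group means taken off, same-numbered arrays of the 2 groups correlated at -0.51 to 0.01. Arrays numbered 2, 3 and 4 showed different sex-linked transcripts in the 2 groups. The random block had a consensus correlation of -0.01. The share of higher genes among those called was 66.6%, and 61.0%, 69.5% and 63.1% with quantile, median and cyclic loess scaling. Itga4, not called, was higher by 0.73 with its most variable probe set. The calls of single genes that 1 array decides are given beside them. Of 222 named genes 171 were called, 124 of them in every setting that gave a value, and 47 lost the call in at least 1. Of the 51 that were not called, 17 were called in at least 1.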
